A study of Homo sapiens with 3 samples.

Results

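The transcripts of 10 complement genes were examined in THP-1 macrophages: C1QA, C1QB, C1QC, C2, C3, CFB, CFP, CFD, C3AR1, and C5AR1. All transcript probes that carry 1 of these gene names in the scanner output were taken, which gave 12 probes of 58201 on the array. C2 and C3 have 2 probes each, and the other 8 genes have 1. THP-1 cells come from a human monocytic leukemia, and PMA, a phorbol ester (100 ng/mL for 24 to 36 h), had turned them into macrophage-like cells. All 3 conditions had this differentiation and an overnight rest in common. The first was left untreated (Ctrl), the second received imiquimod (IMQ), which activates toll-like receptors, and the third received DMD, a benzenoid from the fungus Antrodia cinnamomea, before IMQ (IMQ+DMD). The sample label of the third condition reads IMQ+X, and X was taken to be DMD because the title and treatment protocol name no other compound. The labels give 4 h for every sample and no dose, whereas the methods for THP-1 cells in general give 1 h of DMD followed by 24 h of IMQ at 10 μg/mL. There was 1 one-color array per condition, all 3 on 1 slide, so the differences below come without replicates and without p-values, and differences between cultures cannot be told apart from those between treatments.

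Complement is a cascade of plasma proteins that marks surfaces for clearance, punctures membranes, and releases small peptides that attract leukocytes. C1q recognizes antibody complexes and dying cells and starts the classical pathway, in which C2 supplies the protease of the C3 convertase. In the alternative pathway factor B takes that place, factor D cleaves factor B, and properdin steadies the convertase. C3 is the hub of all routes, and its fragment C3a and the C5 fragment C5a act on the receptors C3aR1 and C5aR1. The liver makes most plasma complement, while macrophages are a local source of C1q, C3, factor B, and properdin and carry both receptors.

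The probes of C1QB, CFB, and C5AR1 are shown first, 5′ to 3′, as the array lists them. C1QB encodes a chain of C1q, CFB encodes factor B, and C5AR1 the C5a receptor. All 60 bases are shown for C1QB and CFB, and the first 30 of 60 for C5AR1.
C1QB probe: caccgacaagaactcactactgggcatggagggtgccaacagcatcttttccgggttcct
CFB probe: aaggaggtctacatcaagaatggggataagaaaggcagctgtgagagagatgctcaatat
C5AR1 probe: tctcaaaagttctttgggacaaaacagaag
In hg19, the C1QB probe lies at chr1:22987795-22987854 on the plus strand. The C5AR1 probe lies at chr19:47824501-47824560 on the plus strand. The CFB probe spans chr6:31918992-31919147 on the plus strand, a stretch of 156 bases for a probe of 60, so it crosses a splice junction. The same holds for the first C3 probe, which spans 258 bases at chr19:6679177-6679434 on the minus strand. The exon or untranslated region that each probe covers was not assigned here.

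Values are the authors' quantile-normalized intensities in linear units, and differences are on the log2 scale, so that a difference of 1 is 2-fold. Of the transcript probes, 66.6% to 72.0% were well above background on an array, and the 75th percentile of the intensity before normalization was 472 for Ctrl, 346 for IMQ, and 361 for IMQ+DMD. The lowest normalized intensity among probes well above background was 16.5, 23.8, and 16.9, respectively. Of the 12 complement probes, 11 exceeded background well on each of the 3 arrays and could be compared. The exception, C1QC, was not well above background on any array (11.6, 5.70, and 11.3) and has no fold. No complement spot was saturated or marked as an outlier (0 of each). Repeated spots of the same probe, of which 300 probes have 10 each, gave the noise within an array. The SD was taken by log2 intensity before normalization. Its median was 0.31 between 4 and 5, 0.21 between 5 and 6, 0.16 between 6 and 7, and 0.05 between 11 and 12. These medians rest on 9, 14, 19, and 166 pairs of a probe and an array, respectively, so the noise of dim probes is known only roughly. The value in parentheses after a difference is the SD that this noise gives to it, which does not include variation between cultures.

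**Figure D1:**
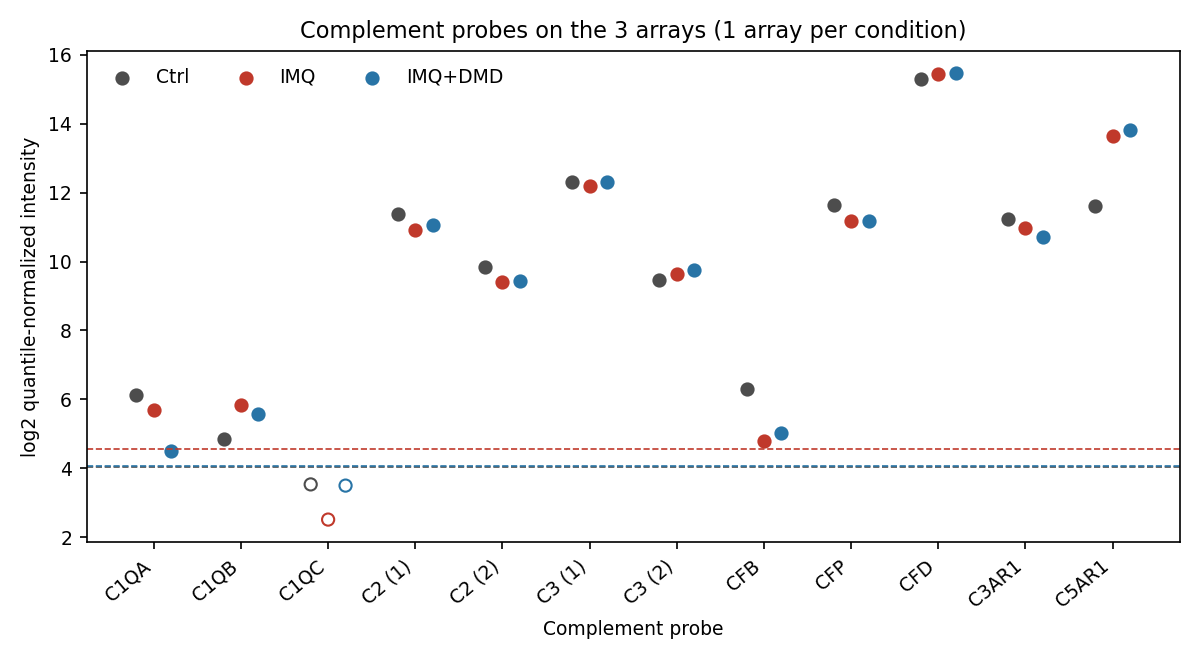
Log2 quantile-normalized intensity of the 12 complement probes (horizontal axis) on the Ctrl, IMQ, and IMQ+DMD arrays, 1 point per array. Open points were not well above background, and each dashed line marks, in the color of its array, the lowest value among probes well above background. C5AR1 stands higher on both IMQ arrays than on Ctrl, CFB lower, and the C1QA, C1QB, and CFB points lie in the dim range where spot noise is wide.

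With IMQ alone, the question was how activation of the macrophages changed complement transcripts. C5AR1 was 4.11-fold higher with IMQ than in Ctrl and CFB was 2.83-fold lower, while the other 9 compared probes differed by less than 2-fold. Thus 1 of 11 probes was at least 2-fold higher, where 4.19% of all compared probes were, and 1 was at least 2-fold lower, where 3.38% were. The median difference of the 11 probes was -0.27, beside -0.01 over all compared probes.

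The C5a receptor gene C5AR1 had an intensity of 3121 in Ctrl, 12840 with IMQ, and 14434 with IMQ+DMD. Both IMQ arrays were therefore far above Ctrl and near each other. The difference of IMQ from Ctrl was 2.04 (0.06), and 353 of 42360 compared probes, or 0.833%, lay at least as far above 0. C3AR1, the receptor of C3a, read 2421, 2009, and 1685 in the same order, so Ctrl was the highest of the 3. Its difference of IMQ from Ctrl was -0.27 (0.07), under the 2-fold limit.

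Among the alternative pathway genes, CFB (factor B) read 79.0 in Ctrl, 27.9 with IMQ, and 32.7 with IMQ+DMD. The IMQ reading was close to the lower limit of 23.8 on that array, the lowest value among probes well above background. A SERPING1 probe at 28.3 on the same array was not well above background. The CFB difference of -1.50 (0.35) thus belongs to a dim probe. In all, 441 compared probes (1.04%) lay at least as far below 0. CFP (properdin) read 3198, 2336, and 2324, a difference of -0.45 (0.06) between IMQ and Ctrl. CFD (factor D) was bright on every array, at 40616, 44746, and 45405, and differed by 0.14 (0.06). Of these 3 genes, only CFB passed the 2-fold limit.

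The C1q chains gave dim readings. C1QA read 69.3 in Ctrl, 51.7 with IMQ, and 22.7 with IMQ+DMD, in falling order, and IMQ differed from Ctrl by -0.42 (0.27). C1QB read 29.0, 57.1, and 47.9, with Ctrl the lowest, and IMQ differed from Ctrl by 0.98 (0.30), a fold of 1.97. The 2 chains of C1q thus stood on opposite sides of 0, C1QA within 2 SD of spot noise. The C1QB difference was beyond that as reported and with 75th percentile scaling (0.79). It fell to 0.26 with spike-in scaling, 0.34 without normalization, and 0.41 with normexp. The medians over all compared probes were -0.60 with spike-in scaling and -0.51 without normalization. The genes of the 3 chains lie side by side on chromosome 1 (GRCh38.p14, RefSeq), C1QA and C1QC 3954 bases apart and C1QC and C1QB 5127 bases apart, with no annotated gene wholly in between.

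C2, the classical pathway protease, read 2645, 1923, and 2150 on its first probe (hg19 chr6:31913187-31913246) and 922, 683, and 690 on its second (hg19 chr6:31912555-31912614). The probes gave like differences of IMQ from Ctrl, -0.46 (0.07) and -0.43 (0.07). The gene lies 422 bases before CFB on the same strand of chromosome 6, and the 2 neighbours both read lower with IMQ, C2 by less than 2-fold and CFB by more. C3 read 5096, 4701, and 5086 on its first probe, and 702, 790, and 857 on its second (hg19 chr19:6686136-6686195). The probes disagreed in sign for IMQ against Ctrl, -0.12 (0.06) and 0.17 (0.07), so these arrays give no direction for C3.

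**Figure D2:**
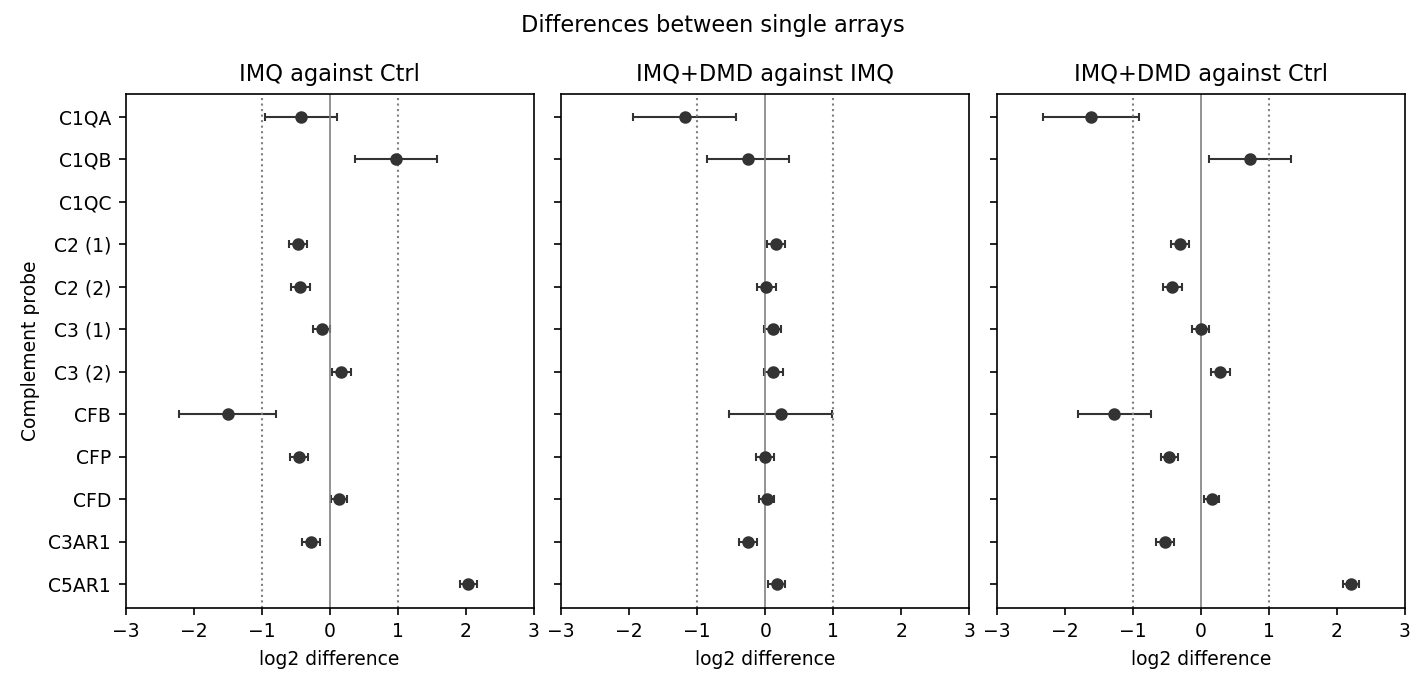
Log2 differences of the complement probes (vertical axis) between single arrays in the 3 comparisons. Bars show 2 SD of spot noise in each direction and no variation between cultures, dotted lines mark 2-fold, and C1QC has no point because it was not well above background. C5AR1 and CFB lie outside the dotted lines for IMQ against Ctrl, and C1QA for IMQ+DMD against IMQ.

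With DMD before IMQ, the question was whether the compound altered the complement transcripts of activated macrophages. C1QA was 2.28-fold lower with IMQ+DMD than with IMQ, and the other 10 compared probes differed by less than 2-fold. Counts were 0 of 11 higher and 1 of 11 lower by at least 2-fold, where 1.06% and 1.27% of all compared probes were. The median difference was 0.02, beside -0.01 over all compared probes, and 7 of the 11 differences were within 2 SD of spot noise. This comparison shares the IMQ array with the one before, so a high or low reading on that array enters both with opposite signs.

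C1QA (51.7 with IMQ, 22.7 with IMQ+DMD) differed by -1.19 (0.38), with 302 of 42005 compared probes (0.719%) at least as far below 0. The reading of 22.7 was near the lower limit of 16.9 on its array. The call was lost under the other scalings between arrays and with normexp, which changes the background correction and adds an offset of 50 that compresses differences of dim probes: the difference was -0.86 with scaling to the 75th percentile, -0.80 without normalization, -0.65 with scaling to spike-in probes, and -0.47 with normexp. C1QB differed by -0.25 (0.30), within spot noise.

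The 2 genes that stood apart with IMQ alone stayed near their IMQ level. C5AR1 differed by 0.17 (0.06) between IMQ+DMD and IMQ, a fold of 1.12, and by -0.03 with scaling to the 75th percentile. CFB differed by 0.23 (0.38), within spot noise, and by 0.78 with spike-in scaling. C3AR1 differed by -0.25 (0.07), beyond spot noise and less than 2-fold. CFP (-0.01), CFD (0.02), C2 (0.16 and 0.01), and C3 (0.11 on its first and 0.12 on its second probe) each differed by 0.16 or less in size.

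Compared with Ctrl, the IMQ+DMD array had C5AR1 4.63-fold higher, CFB 2.42-fold lower, and C1QA 3.05-fold lower. The remaining 8 of the 11 probes differed by less than 2-fold. That is 1 probe higher, where 3.09% of all compared probes were, and 2 lower, where 4.91% were. The differences were 2.21 (0.06) for C5AR1, -1.27 (0.27) for CFB, and -1.61 (0.35) for C1QA, of which CFB and C1QA fell short of 2-fold with normexp, at -0.59 and -0.66. C1QB differed by 0.72 (0.30), C3AR1 by -0.52 (0.07), and CFP by -0.46 (0.07). The first C3 probe was level with Ctrl (-0.00), and its second differed by 0.29 (0.07). The median of the 11 was -0.30, beside 0.04 over all compared probes. As this comparison reuses both the Ctrl and the IMQ+DMD array, its values are no independent repeat of the others.

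Another 51 complement genes with 73 probes were listed by role, and 21 of these probes were not well above background on any array. With IMQ, 2 of 50 compared probes stood above Ctrl by at least 2-fold and 2 below, with a median of 0.08. These shares were near those of all compared probes, 4.19% higher and 3.38% lower. Between IMQ+DMD and IMQ, 0 of 52 were higher and 0 lower, where 1.06% and 1.27% of all compared probes were, with a median of 0.03. One CR2 probe counted as compared in both has no fold, because its level lay under the lower limit of the IMQ array.

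C5AR2, the second C5a receptor, read 441 in Ctrl, 1530 with IMQ, and 1532 with IMQ+DMD. Its difference of IMQ from Ctrl was 1.79 (0.07), so both C5a receptor genes were at least 2-fold higher. In GRCh38.p14 it lies 10108 bases after C5AR1 on chromosome 19, with no annotated gene wholly in between. C5, the source of C5a, read 572, 198, and 172, a difference of -1.53 (0.11) with IMQ. The ligand gene was thus lower on both IMQ arrays while its 2 receptor genes were higher.

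THBD (thrombomodulin, a membrane protein that restrains coagulation and complement) read 9659, 32412, and 32018, a difference of 1.75 (0.06) with IMQ. VSIG4, a macrophage receptor for C3b and iC3b, read 3424, 1458, and 1481, a difference of -1.23 (0.07). All 4 genes read nearly the same with and without DMD: the difference of IMQ+DMD from IMQ was 0.00 for C5AR2, -0.20 for C5, -0.02 for THBD, and 0.02 for VSIG4. Between IMQ+DMD and Ctrl, 3 of 52 probes stood at least 2-fold above and 2 below, where 3.09% and 4.91% of all compared probes did. The added one was a C8G probe (540, 1000, and 1090), at 1.01 (0.07), while the second C8G probe (182, 253, and 241) was at 0.40 (0.14). The first was under 2-fold with 75th percentile scaling (0.93), normexp (0.95), spike-in scaling (0.61), and no normalization (0.55). C8G encodes a chain of the membrane attack complex.

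By role, 0 of 13 probes of classical and lectin initiation genes and 0 of 12 probes of soluble regulators passed 2-fold in either direction with IMQ. In the terminal pathway 0 of 6 were higher and 1 lower (C5). Of the membrane regulators, 1 of 6 was higher (THBD), and of the receptors, 1 of 13 was higher (C5AR2) and 1 lower (VSIG4). For IMQ against Ctrl, the array-wide shares were 4.19% up and 3.38% down. Sets of 6 to 13 probes are therefore too small to tell the roles apart. C4A and C4B are closely related genes, as are the CFHR genes, and whether their probes read each other's transcripts was not tested.

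**Figure D3:**
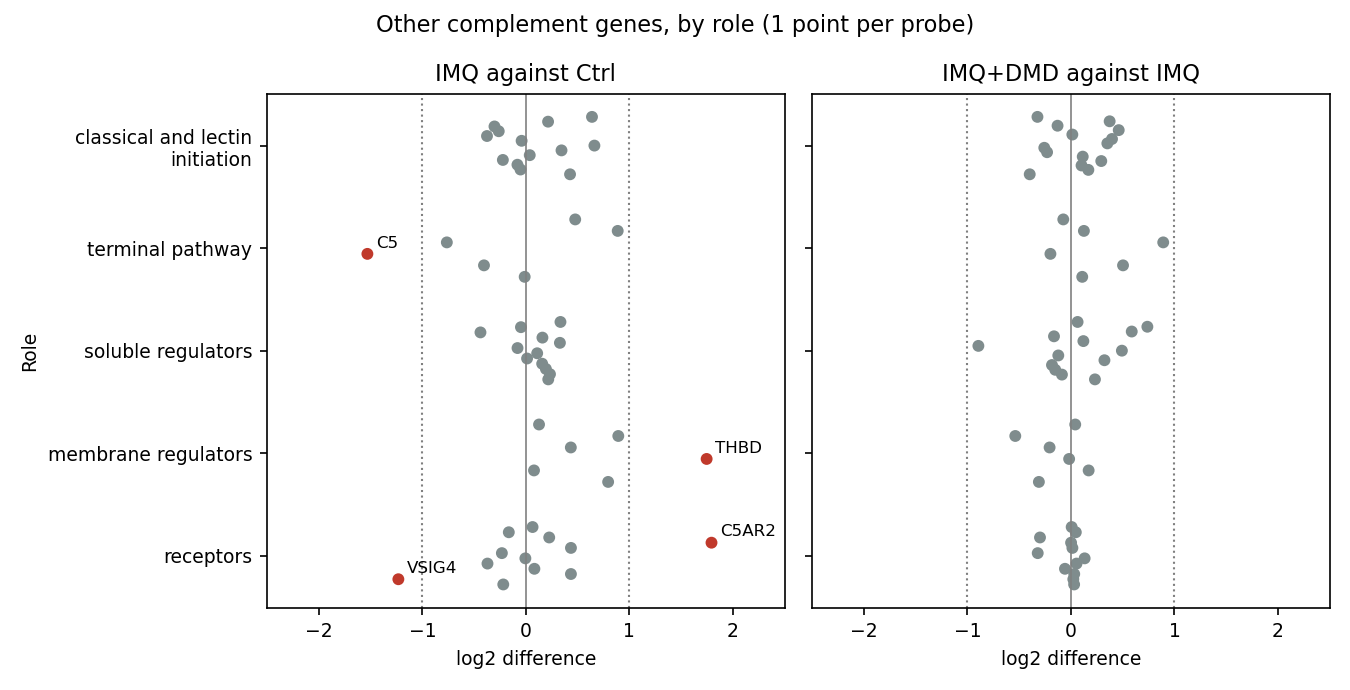
Log2 differences of the other complement probes, 1 point per probe, by role (vertical axis), for IMQ against Ctrl and IMQ+DMD against IMQ. Dotted lines mark 2-fold and points beyond them are red with the gene name. THBD and C5AR2 lie above 1 and C5 and VSIG4 below -1 on the left, and no point lies beyond 2-fold on the right.

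The 250 bases before a RefSeq transcript start (GRCh38.p14) were set side by side for C5AR1 and CFB, because these genes passed 2-fold with IMQ in opposite directions, a choice made after their values were seen. Letters that match a searched motif are in capitals.
C5AR1 (chr19:47309611-47309860, plus strand): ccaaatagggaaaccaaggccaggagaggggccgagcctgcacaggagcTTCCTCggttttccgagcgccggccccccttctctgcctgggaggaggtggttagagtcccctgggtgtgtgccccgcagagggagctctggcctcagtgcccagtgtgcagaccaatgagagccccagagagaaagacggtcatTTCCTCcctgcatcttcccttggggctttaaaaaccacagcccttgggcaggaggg
CFB (chr6:31945845-31946094, plus strand): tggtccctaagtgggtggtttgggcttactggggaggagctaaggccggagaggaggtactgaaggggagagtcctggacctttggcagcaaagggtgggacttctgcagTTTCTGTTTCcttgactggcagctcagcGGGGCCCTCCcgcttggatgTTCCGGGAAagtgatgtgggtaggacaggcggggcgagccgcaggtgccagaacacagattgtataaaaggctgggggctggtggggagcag
Both strands were searched for the NF-kB consensus, the STAT motif TTCNNNGAA, the interferon motif (a pair of GAAA separated by 2 bases), the AP-1 motif TGANTCA, and the PU.1 core GAGGAA. The CFB window held an interferon motif on the minus strand at bases 140 to 131 before the start, an NF-kB match at 112 to 103, and a STAT motif at 92 to 84, with no overlap. The C5AR1 window held 2 PU.1 cores on the minus strand, at bases 201 to 196 and 56 to 51. Of 35116 promoter windows of this length, 9.96% held the NF-kB consensus, 6.57% the STAT motif, 3.02% the interferon motif, 6.57% the AP-1 motif, and 23.6% the PU.1 core. The C5AR1 window lies inside the gene record, which begins further upstream.

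Windows were found for 8 of the 10 genes, and C1QC and C3 had none. C1QB held an NF-kB match at bases 26 to 17 before its start, C1QA a STAT motif at 66 to 58, C3AR1 an AP-1 motif at 133 to 127, and CFP 2 PU.1 cores. C2 and CFD held none of these motifs. A match describes letters in the window and says nothing of a factor bound there.

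The label was checked against cell type markers. Of the macrophage and monocyte probes (8 genes of 10 matched), 10 of 11 were well above background on each array, with CSF1R at 224896, 172912, and 153691 and CD14 at 21875, 13399, and 9436 in Ctrl, IMQ, and IMQ+DMD. Not all markers ran this way: SPI1 read 18093, 18655, and 19406, and MRC1 139, 97.5, and 152. The summed intensity, most of it CSF1R, was 305395, 231155, and 208493, so it was highest in Ctrl. Against Ctrl, 2 of 10 compared probes were at least 2-fold lower with IMQ (CD163 and 1 MSR1 probe), where 3.38% of all compared probes were. With IMQ+DMD it was 4 of 10 (CD14, CD163, FCGR1A, and 1 MSR1 probe), where 4.91% of all were. FCGR1A was dim, at 77.7, 46.7, and 35.2. The part of these shifts in the complement results was not tested, and fewer cells and less RNA per cell cannot be told apart in bulk RNA.

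For hepatocytes, the main source of plasma complement, 5 of 9 probes were well above background on each array. The summed intensity was 1464, 1572, and 1578, of which 1 SERPINA1 probe made up most (1185, 1189, and 1258), ALB read 39.2, 60.1, and 57.6, and all FGA probes were not well above background. One APOA1 probe read 28.3, 57.5, and 53.3, which was 2.03-fold higher with IMQ than in Ctrl. The other, brighter APOA1 probe read 137, 168, and 145, which was 1.23-fold higher with IMQ than in Ctrl. TTR read 50.9, 61.6, and 32.1. The T cell probes summed to 815, 689, and 841, with CD3D at 319, 304, and 335. The B cell probes summed to 4736, 3842, and 4571, most of it CD79A (4148, 3424, and 4011), with MS4A1 at 102, 83.2, and 157. The neutrophil probes, whose genes myeloid precursors also use, summed to 3447, 3341, and 3594, most of it ELANE (2274, 2434, and 2569). Well above background were 6 of 6 T cell probes (5 with IMQ), 4 of 4 B cell probes, and 3 of 3 neutrophil probes. That count therefore does not set macrophages apart. The median log2 intensity in Ctrl was 13.1 for macrophage and monocyte probes, 10.1 for neutrophil, 7.69 for B cell, 6.61 for T cell, and 4.82 for hepatocyte probes.

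Scaling between arrays moved the whole distribution, and the complement values with it. Over all compared probes, 55.3% of the probes at least 2-fold different between IMQ and Ctrl were higher with IMQ, but 44.1% with scaling to the 75th percentile, 9.87% without normalization, and 7.23% under spike-in scaling. The medians over all probes under the last 2 settings were -0.51 and -0.60. In the comparison of IMQ+DMD with IMQ that share was 45.5% as reported, and 82.8%, 87.9%, and 94.5% in the same order of scalings. The median over all probes was 0.21 under spike-in scaling. Between IMQ+DMD and Ctrl the share was 38.6%, and 13.0% without normalization or 16.0% under spike-in scaling, with medians of -0.33 and -0.27.

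The values were also computed with 3 other scalings and with normexp, a background correction that adds an offset of 50. C5AR1 was at least 2-fold higher with IMQ than in Ctrl under all 4, from 1.61 with spike-in scaling to 2.14 with 75th percentile scaling. CFB was at least 2-fold lower under the 3 scalings but not with normexp, from -2.27 with spike-in scaling to -0.66 with normexp. C1QA with IMQ against Ctrl ranged from -1.15 with spike-in scaling to -0.19 with normexp. It passed 2-fold with spike-in scaling and without normalization, where 19.4% and 15.6% of all compared probes were at least 2-fold lower. C1QB ranged from 0.26 with spike-in scaling to 0.79 with 75th percentile scaling. CFD and the second C3 probe turned to -0.27 and -0.32 with spike-in scaling. C5AR2, THBD, C5, and VSIG4 passed 2-fold under all 4, in their reported directions.

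**Figure D4:**
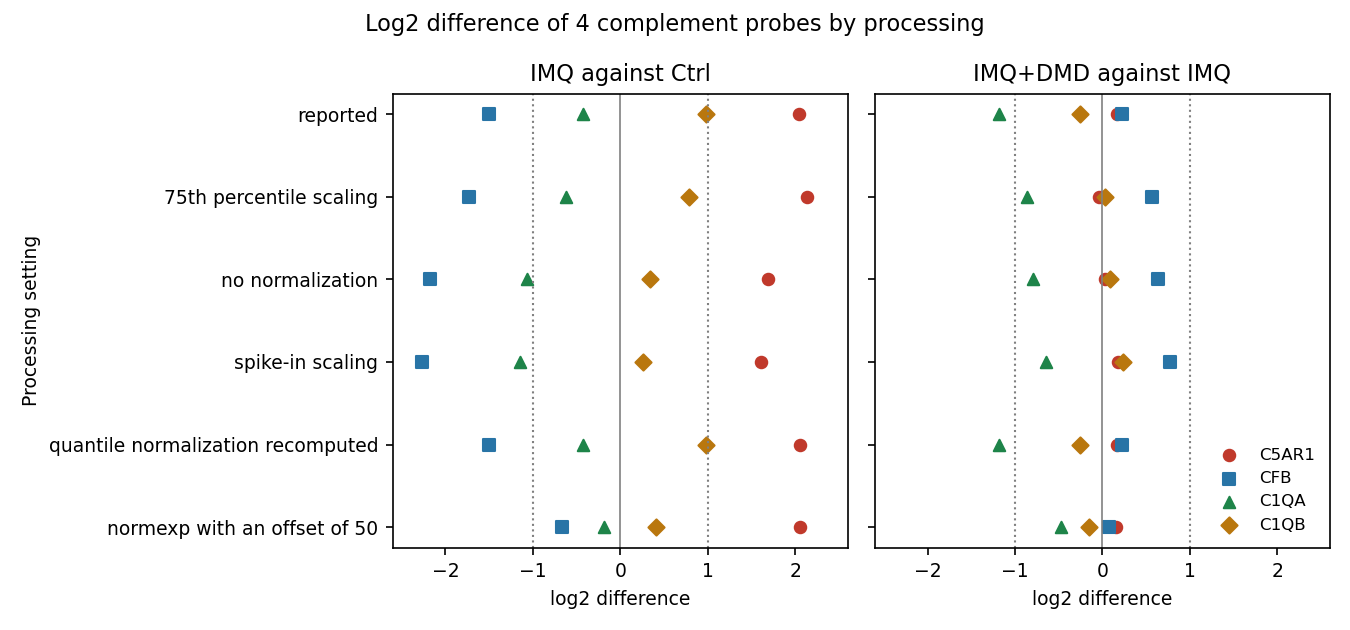
Log2 difference of C5AR1, CFB, C1QA, and C1QB (1 symbol each) under the reported values and 5 other ways of processing (vertical axis), of which the recomputed quantile normalization repeats the authors' method, for IMQ against Ctrl and IMQ+DMD against IMQ. Dotted lines mark 2-fold. C5AR1 stays beyond 1 on the left in every line, CFB falls inside only with normexp, and C1QA lies on either side of -1 in both panels, depending on the processing.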

How the data were processed

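RNA from 1 sample of THP-1 macrophages per condition was labeled with Cy3 and hybridized to 1 one-color array each. The authors deposited, for each array, the scanner software's spot intensities, and a table of raw and quantile-normalized intensity per probe (linear units). The raw intensity in that table was within 0.1% of the scanner output for all 57901 single-spot probes. The normalized intensity was converted to log2, and the 12 complement probes were read from it. Comparisons used probes that exceeded background well on the brighter array, and on the dimmer array a probe was set to at least the lowest value of probes well above background. A probe counted as changed at 2-fold. No p-values were computed, since 1 array per condition gives no measure of the variation between cultures. Genes of the other complement list were named where they passed 2-fold in any comparison.

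Results were recomputed without normalization, with scaling to the 75th percentile or to 8 spike-in probes, with recomputed quantile normalization (limma 3.58.1, R 4.3.3), with normexp at an offset of 50, and with other filters on dim probes, thresholds, and rules for genes with several probes. The scripts were tested on simulated data. The versions were Python 3.11.15, matplotlib 3.10.9, pandas 2.3.3, and numpy 2.4.6. The genes, lists, and thresholds were chosen with earlier results of these data known. The sequences of the other complement probes are not reported here.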

Additional observations from a re-analysis of the deposited data

How the results depend on the processing

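With 1 array per condition, no replicate could be left out. For the same reason, no paired analysis was possible. For IMQ against Ctrl, the count of complement probes at least 2-fold lower was 1 as reported, where 3.38% of all compared probes were. It was 2 with spike-in scaling or no normalization (C1QA in addition to CFB), where 19.4% and 15.6% of all were. With no filter and no floor on dim probes it was 2 (C1QC, below background, in addition), where 6.62% were. It was 0 with normexp or a 4-fold threshold, where 1.69% and 0.319% were. The count higher was 1, where 4.19% of all were, and 2 at 1.5-fold, where 10.9% were. For IMQ+DMD against IMQ, the count lower was 1 (C1QA), where 1.27% of all compared probes were. It was 0 with 75th percentile scaling (0.641% of all), no normalization (0.544%), spike-in scaling (0.384%), normexp (0.0905%), and a 4-fold threshold (0.0976%). For IMQ+DMD against Ctrl, the count lower was 2 (4.91% of all compared probes), and 0 with normexp (2.25%) or a 4-fold threshold (0.636%). The count higher was 1 (3.09% of all), and 2 at 1.5-fold (9.77%). Of 192 single differences recomputed under the 3 other scalings and normexp, 163 kept their sign and 117 moved by at least 1 SD of spot noise. Of the 2-fold calls, 0 changed direction, but these settings could hardly have reversed one. Under the 3 scalings the median over all probes lay between -0.60 and 0.21, less in size than the 1 that a call needs. The normexp offset compresses differences. That 0 is therefore no sign of stability. The 192 differences include the probes of C5AR2, C5, THBD, VSIG4, and C8G that were picked because they passed 2-fold, which favors a kept sign. The 3 scalings differ from each other only by a constant per array, so they are not separate checks.

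Over all compared probes, the counts higher and lower for IMQ against Ctrl were 1773 and 1432 as reported, 730 and 6667 unnormalized, 646 and 8288 with spike-in scaling, 729 and 714 with normexp, 3751 and 3853 with no filter, 4604 and 4339 at 1.5-fold, and 368 and 135 at 4-fold. Between IMQ+DMD and IMQ the counts were 447 and 535, 1306 and 272 with 75th percentile scaling, 1682 and 231 unnormalized, 2820 and 163 with spike-in scaling, 22 and 38 with normexp, 287 and 305 where both arrays had to be well above background, 2491 and 2229 with no filter, 2550 and 2442 at 1.5-fold, and 8 and 41 at 4-fold. For IMQ+DMD against Ctrl they were 1350 and 2146, 672 and 4510 unnormalized, 751 and 3941 with spike-in scaling, 647 and 982 with normexp, 3059 and 3828 with no filter, 4272 and 5207 at 1.5-fold, and 271 and 278 at 4-fold. The cause of these shifts was not tested. C1QA, C1QB, CFB, and C1QC lie in the dim range, where signal over background limits any statement.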
